A study of Mus musculus with 217 samples.

Results

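The effect of withdrawing IPTG at 8 months of age was examined in the striatum of LacQ140 mice at 12 months of age. LacQ140_8M mice, in which lowering of mutant huntingtin was started at 8 months, were compared with LacQ140 mice that stayed on IPTG throughout. The comparison held 18 of the 217 RNA-Seq libraries of the series, taken by their labels, with 9 mice per group (4 females and 5 males in each), all labelled as separate animals. Each LacQ140 mouse was heterozygous for a knock-in *Htt* allele with a chimeric human exon 1 carrying an expanded CAG repeat and with lac operators in its promoter, and carried a ubiquitously expressed lacI repressor transgene driven by the beta-actin promoter. IPTG keeps the repressor off the operators, so the mutant allele is expressed on IPTG and repressed without it, while the wild-type *Htt* allele has no operators. The other 12-month striatum groups entered the same fit. They were LacQ140_A (10 mice, lowering from conception), LacQ140_2M (10 mice, IPTG withdrawn at 2 months), WT mice on IPTG (WT + IPTG, 10 mice) and WT mice without it (9 mice), and the WT mice carried the repressor transgene. At sampling the LacQ140 mice were on IPTG and the LacQ140_8M mice were not, and mice were caged by sex, genotype and treatment, so that cage and group cannot be told apart.

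Most neurons of the striatum are medium spiny neurons, which use GABA and are divided into a direct pathway, marked by the dopamine receptor *Drd1*, and an indirect pathway, marked by *Drd2* and *Adora2a*. Huntington's disease strikes these neurons first, and in mouse models their receptor, signalling and ion channel genes fall in expression long before cells are lost, while developmental and other normally silent genes rise. In bulk tissue, fewer cells of a type and less RNA per cell cannot be told apart.

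The operators of the knock-in allele were inserted on either side of the transcriptional start site of *Htt*, on a synthetic fragment with an AatII restriction site at one end. The 250 bases before the annotated start of wild-type mouse *Htt* (RefSeq sequence, GRCm38.p6, chr5:34761490-34761739, plus strand) are shown because the switch acts there, with the AatII recognition sequence GACGTC in capitals.

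*Htt* promoter: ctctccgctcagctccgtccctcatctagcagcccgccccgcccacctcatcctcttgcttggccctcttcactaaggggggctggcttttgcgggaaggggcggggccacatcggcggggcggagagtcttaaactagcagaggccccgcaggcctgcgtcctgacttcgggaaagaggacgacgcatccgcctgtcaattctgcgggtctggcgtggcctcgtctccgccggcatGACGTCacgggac

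The AatII sequence occurred once, 7 bases before the start. The same 6 letters, which read the same on both strands, were found in 3.77% of the 32851 promoters of this length, and 66.4% of the bases in the *Htt* window were G or C. The sequence is that of the wild-type allele without operators.

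The 18 libraries held 34638993 to 47893340 counts each, and the groups differed in depth by less than the spread between mice (exact permutation p = 0.27, two-sided). The labelled tissue was checked on its markers. *Ppp1r1b*, which encodes the spiny neuron protein DARPP-32, lay at 1370 to 2040 CPM (gene counts scaled to the library total) in these libraries, against 64.3 to 104 CPM in cortex. The sex labels matched the sex-linked genes in 18 of 18 libraries. Markers of neighbouring tissue set 4 libraries apart. LacQ140 M1 held 124 CPM summed over 14 hypothalamic neuron genes, against at most 14.4 CPM in the other LacQ140 libraries, and LacQ140 M2 held 630 CPM over 12 cortical projection neuron markers, against at most 250 CPM. LacQ140_8M F2 held 277 CPM over 8 thalamic markers and 29.0 CPM over 7 cerebellar granule neuron genes, against at most 121 and 10.3 CPM in the rest of its group, and LacQ140_8M M4 held 714 CPM over 11 ependymal and choroid plexus markers, against at most 469 CPM. Values with these 4 libraries set aside are given beside calls and list counts that they change, and that choice was made after seeing the data. With fewer mice, fewer genes reach any threshold, and genes higher and lower at an unadjusted p under 0.05 went from 453 and 488 to 248 and 271 of 13397.

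**Figure D1:**
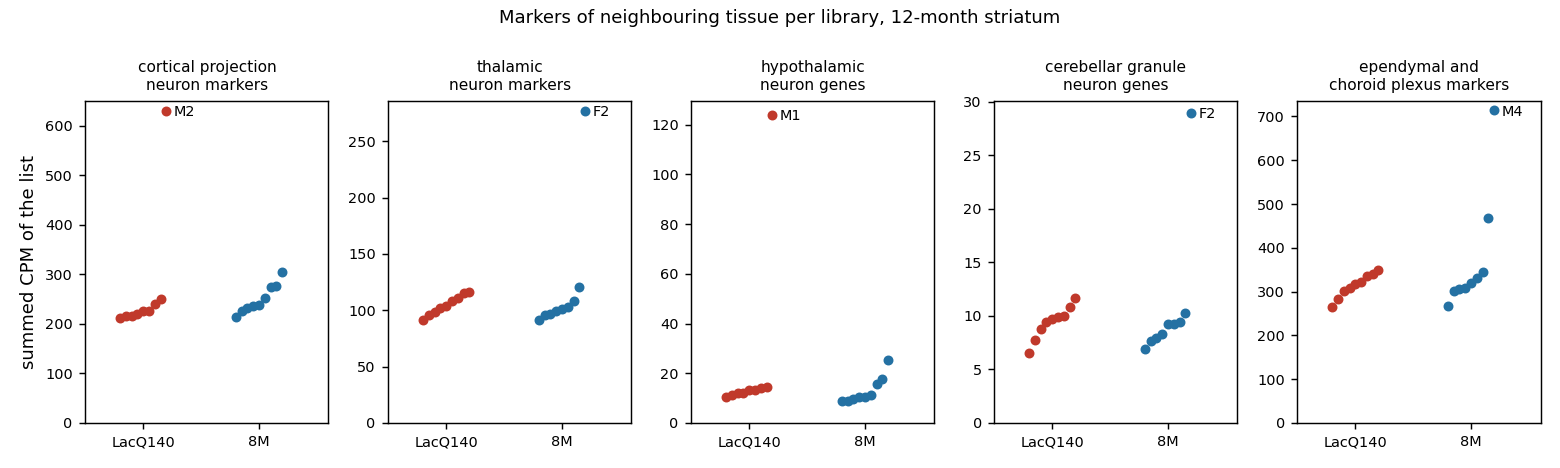
Summed CPM of 5 marker lists of neighbouring brain tissue in the 9 LacQ140 (red) and 9 LacQ140_8M (blue) striatum libraries, 1 point per mouse in order of value, with the library that stands apart labelled. LacQ140 M2 reached 630 CPM for cortical markers, LacQ140 M1 124 CPM for hypothalamic genes, LacQ140_8M F2 277 CPM for thalamic and 29.0 CPM for cerebellar genes, and LacQ140_8M M4 714 CPM for ependymal and choroid plexus markers.

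Total *Htt* mRNA, from both alleles, had the same mean in the groups as normalised. *Htt* (chr5:34761740-34912534) lay at 93.1, 112 and 120 CPM (lowest, median and highest) in LacQ140_8M mice and at 96.7, 113 and 124 CPM in LacQ140 mice. The ranges overlapped almost completely, and both lay below the 125 to 163 CPM of WT + IPTG mice. The means were 111 ± 8.15 and 111 ± 10.9 CPM (SD, n = 9 each), and the log2 fold change was -0.001 (SE 0.071, 95% interval -0.143 to 0.14, edgeR quasi-likelihood adjusted p = 1.0). In the same fit and against the same LacQ140 mice, the log2 fold change of *Htt* was -0.249 in LacQ140_A (adjusted p = 0.049) and -0.146 in LacQ140_2M (adjusted p = 0.56). The counts do not separate the alleles, so these values are those of wild-type and mutant transcripts together.

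The longest annotated *Htt* transcript has 13215 nucleotides, and log2 fold changes of this comparison moved with transcript length. Among genes whose mean log2 CPM was 1 or more, 13391 had an annotated length, and over these the median log2 fold change was -0.106 for 528 genes with transcripts up to 1000 nucleotides, -0.021 for 5416 genes between 2000 and 4000 nucleotides and 0.104 for 869 genes above 8000 nucleotides. The share of genes above 0 went from 11.2% in the shortest class to 92.3% in the longest, and Spearman's rho between log2 fold change and length was 0.552 across genes, which share these 18 libraries and are not independent replicates. Within a library, the slope of log2 CPM on log2 length was 0.267, 0.383 and 0.439 (lowest, median and highest) in LacQ140_8M mice and 0.234, 0.326 and 0.435 in LacQ140 mice. The ranges of the slopes overlapped, with a difference in means of 0.056 (exact permutation p = 0.068, two-sided). Without 1 mouse the difference lay between 0.044 and 0.070. The permutation p-value was 0.018 without LacQ140_8M F5 (difference 0.070) and 0.020 without LacQ140 M3 (0.069). These mice had the lowest LacQ140_8M and the highest LacQ140 slope, so leaving either out widens the difference by construction. Slopes in the other groups reached from 0.128 to 0.416.

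**Figure D2:**
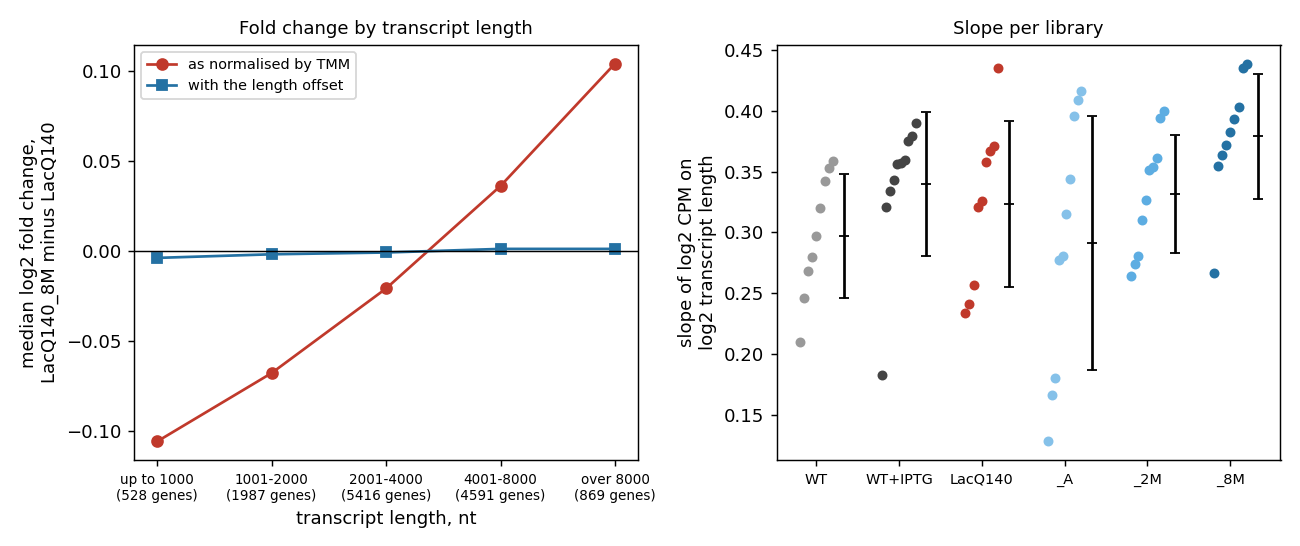
Left, median log2 fold change (LacQ140_8M minus LacQ140) of genes in 5 classes of transcript length in nucleotides, as normalised by TMM (red circles) and with the length offset (blue squares), going from -0.106 to 0.104 before the offset and staying between -0.004 and 0.001 after it. Right, slope of log2 CPM on log2 transcript length in each 12-month striatum library (points) with the mean and SD of each group (bars), where the groups overlap and LacQ140_8M has a mean of 0.379 against 0.323 in LacQ140.

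The comparison was therefore also computed with a length offset, a smooth curve of log2 CPM on log2 length removed from every library. Values by sex, list medians of single mice, fits that left out 1 mouse and cortex values are without it. The offset takes out any difference that follows length, whatever its source. With it, length-corrected *Htt* lay at 95, 103 and 109 CPM (lowest, median and highest) in LacQ140_8M mice and at 104, 112 and 116 CPM in LacQ140 mice. Of the 9 LacQ140_8M mice, 7 lay below the lowest LacQ140 mouse, and 8 of the 9 LacQ140 mice lay above the highest LacQ140_8M mouse. The log2 fold change was -0.130 (SE 0.034, 95% interval -0.198 to -0.063, unadjusted p = 0.00027), and it did not pass adjustment over all genes (edgeR adjusted p = 0.44). With the slope of each library as a covariate in place of the offset the log2 fold change was -0.117 (unadjusted p = 0.0021), and with the offset and the 4 libraries set aside it was -0.122 (unadjusted p = 0.0033). For the other groups against the same LacQ140 mice, the offset gave -0.181 in LacQ140_A (adjusted p = 0.00024) and -0.152 in LacQ140_2M (adjusted p = 0.0043). In cortex, which was fitted apart and without any length correction, *Htt* had means of 18 ± 4.01 CPM in LacQ140_8M and 23.9 ± 4.18 CPM in LacQ140 mice (SD, n = 10 each). The cortex log2 fold change was -0.408 (SE 0.131, unadjusted p = 0.0026) and did not pass adjustment over all genes in edgeR (adjusted p = 1.0). It is not comparable with the striatal values that have the offset.

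Across the transcriptome few genes passed the test. A gene was called at an edgeR adjusted p under 0.05 and a change of at least 20%. Of 35386 genes tested, 2 were called (0.00565%), *Scn4b* higher and *Hcrt* lower in LacQ140_8M mice, and 1815 genes (5.13%) had an unadjusted p under 0.05. DESeq2 called 1 gene, *Scn4b* again. In the same fit and with the same criteria, LacQ140 against WT + IPTG called 3340 genes (9.44%), LacQ140_A against LacQ140 322 genes (0.91%) and LacQ140_2M against LacQ140 215 genes (0.608%). These comparisons share the LacQ140 mice. The small number of calls came with narrow intervals. Of the 13397 genes whose mean log2 CPM was 1 or more, 71.9% had a 95% interval of the fold change that lay within 1.2-fold in either direction, and 97.9% within 1.5-fold.

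*Scn4b* encodes a sodium channel beta subunit that is abundant in spiny neurons. It (chr9:45138395-45154152) lay at 730, 800 and 882 CPM (lowest, median and highest) in LacQ140_8M mice, at 555, 613 and 767 CPM in LacQ140 mice and at 1490, 1750 and 1990 CPM in WT + IPTG mice. Of the LacQ140_8M mice, 6 lay above the highest LacQ140 mouse, and all of them lay far below the WT + IPTG range. The level rose by 27.3% (log2 fold change 0.35, SE 0.064, 95% interval 0.22 to 0.48, edgeR adjusted p = 0.03), and by 24.7% with the length offset (adjusted p = 0.0089). With the slope of each library as a covariate the log2 fold change was 0.30 and the call was lost (adjusted p = 0.077). Against the same LacQ140 mice *Scn4b* was higher by 0.54 (log2) in LacQ140_A and by 0.60 in LacQ140_2M. Over 18 fits that left out 1 mouse each, the log2 fold change lay between 0.33 and 0.39 and the adjusted p between 0.0034 and 0.1. The call was lost in 9 of them, without LacQ140 F1, F3, M1 or M2 or without LacQ140_8M F4, M1, M2, M4 or M5. It was also lost with the 4 libraries set aside (log2 fold change 0.32, adjusted p = 0.37).

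The other call rested on 1 library. *Hcrt*, which encodes the hypothalamic neuropeptide orexin, lay at 19.3 CPM in LacQ140 M1, at most 0.136 CPM in the other LacQ140 mice and at most 0.261 CPM in LacQ140_8M mice (log2 fold change -4.72, adjusted p = 0.041). Without LacQ140 M1 the log2 fold change was -0.01.

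The other spiny neuron genes that the study examined by name lay between the LacQ140 and the WT + IPTG level on average, with overlapping groups. *Pde10a*, the striatal cyclic nucleotide phosphodiesterase, lay at 641, 831 and 917 CPM (lowest, median and highest) in LacQ140_8M mice and at 548, 617 and 792 CPM in LacQ140 mice. Of the LacQ140_8M mice, 7 lay above the LacQ140 range, yet its log2 fold change of 0.31 (SE 0.089, unadjusted p = 0.00081) did not pass adjustment (edgeR adjusted p = 0.68). *Drd1* lay at 135, 173 and 198 CPM against 121, 148 and 168 CPM, a log2 fold change of 0.25 (SE 0.081, unadjusted p = 0.0028). *Adcy5*, the adenylyl cyclase that the dopamine receptors act on, lay at 856, 940 and 1040 CPM against 749, 811 and 941 CPM, a log2 fold change of 0.18 (SE 0.057, unadjusted p = 0.0019). For *Drd1* 5 and for *Adcy5* 4 of the 9 LacQ140_8M mice lay above every LacQ140 mouse. *Drd2* and *Ppp1r1b* overlapped more, and their log2 fold changes were 0.30 and 0.22 in males but -0.05 and -0.06 in females. *Drd2* lay at 172, 201 and 227 CPM against 151, 191 and 208 CPM (log2 fold change 0.14, SE 0.071), and *Ppp1r1b* at 1550, 1760 and 2040 CPM against 1370, 1720 and 1910 CPM (log2 fold change 0.10, SE 0.074). *Penk*, the enkephalin precursor of indirect pathway neurons, lay at 724, 815 and 925 CPM against 683, 734 and 890 CPM, overlapping ranges with a log2 fold change of 0.12 (SE 0.076, unadjusted p = 0.13). With the length offset, the log2 fold changes were 0.24 for *Pde10a*, 0.26 for *Drd1*, 0.12 for *Adcy5*, 0.18 for *Drd2*, 0.15 for *Ppp1r1b* and 0.19 for *Penk*.

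**Figure D3:**
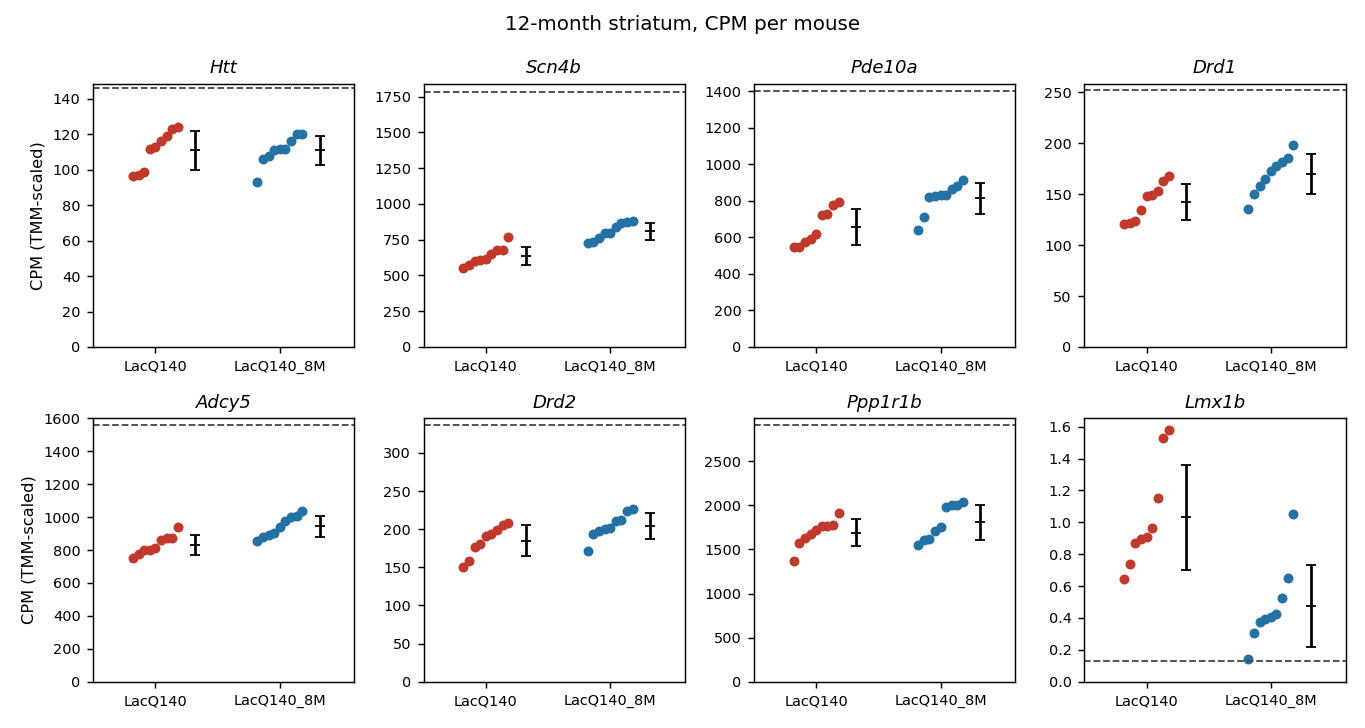
CPM (TMM-scaled) of *Htt*, 6 spiny neuron genes examined by name in the study and *Lmx1b* in 9 LacQ140 (red) and 9 LacQ140_8M (blue) striata, 1 point per mouse in order of value, with mean and SD (bars) and the mean of WT + IPTG mice (dashed line). *Htt* overlaps almost completely, 6 LacQ140_8M mice lie above all LacQ140 mice for *Scn4b*, and 7 lie below all LacQ140 mice for *Lmx1b*.

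The spiny neuron identity genes as a list were slightly higher in LacQ140_8M mice. All 30 members had a log2 fold change above 0 (of all 13397 genes, 47.9% did), from 0.02 to 0.47 with a median of 0.123 (-0.004 over all genes). By rank of the signed test statistic, the median member lay at percentile 95.7 of all genes. Of the 30, 13 were higher and 0 lower at an unadjusted p under 0.05, against 3.38% of all genes higher and 3.64% lower, and 1 member, *Scn4b*, passed adjustment. Beside *Scn4b*, *Pde10a* and *Adcy5*, the smallest p-values were those of *Ryr1*, a calcium release channel (0.47), *Actn2*, a cytoskeletal actin-binding protein (0.22), *Cnr1*, the cannabinoid receptor (0.21), and *Bcl11b*, a transcription factor of spiny neuron identity (0.17, all log2). The length offset left the median at 0.114 and gave 16 members higher and 0 lower, where 2.9% of all genes were higher and 2.37% lower. With the 4 libraries set aside the median was 0.102 and 8 members were higher. Oligodendrocyte markers had a median log2 fold change of -0.104 over 14 genes (-0.109 with the 4 libraries set aside) and a median rank at percentile 15.3, with all 14 at or below 0 and 4 lower at an unadjusted p under 0.05. Their median was -0.034 in males and -0.170 in females. Their part in the result was not tested. The spiny neuron list had lain at a median of -0.667 in LacQ140 against WT + IPTG, with 27 of 30 members called lower (of all genes tested, 4.86% were called lower and 4.58% higher). Against the same LacQ140 mice its median was 0.234 in LacQ140_A, with 10 members called higher (0.562% of all genes), and 0.223 in LacQ140_2M, with 12 called higher (0.466%).

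In WT mice, the list had a median log2 difference of 0.005 without IPTG against with IPTG. In single mice, the list median relative to the WT + IPTG mean was -0.715, -0.506 and -0.425 (lowest, median and highest) in LacQ140_8M and -0.806, -0.630 and -0.551 in LacQ140. The groups overlapped, and LacQ140_8M mice lay below all 10 WT + IPTG mice, the lowest of which was at -0.216. The list median was 0.198 in males and 0.020 in females, a difference that was not tested for the list. No single gene passed the test of the difference between the sexes (0 of 35386 called, smallest edgeR adjusted p = 0.1, 1276 genes at an unadjusted p under 0.05). For *Scn4b* the log2 fold change was 0.46 in males and 0.21 in females.

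Spiny neurons of the indirect pathway carry *Drd2* and those of the direct pathway *Drd1*. Of 9 measured indirect pathway genes, 8 lay above 0 with a median log2 fold change of 0.118 and a median rank at percentile 91.2. Higher at an unadjusted p under 0.05 were *Adora2a*, an adenosine receptor (0.21), *Grik3*, a kainate receptor subunit (0.20), *Gpr6*, an orphan receptor (0.16), and *Drd2*, 1 of them with the 4 libraries set aside. *Adora2a* lay at 192, 229 and 250 CPM in LacQ140_8M and at 172, 196 and 214 CPM in LacQ140 mice, with 6 LacQ140_8M mice above the LacQ140 range. The 10 direct pathway genes had a median of 0.034 (0.007 without LacQ140_8M F4 and 0.067 without LacQ140_8M F2), with *Drd1* higher and *Stmn2*, a microtubule regulator, lower at an unadjusted p under 0.05. With the 4 libraries set aside 1 member was higher and 0 lower. *Stmn2* lay at 137, 149 and 161 CPM against 142, 170 and 202 CPM, which was nearer to the 93.9 to 120 CPM of WT + IPTG mice. By sex, the indirect pathway median was 0.206 in males and 0.011 in females, and the direct pathway median 0.051 and 0.022, so the 2 medians lay close together in females. In LacQ140 against WT + IPTG mice the direct pathway list had a median of -0.121, with 2 members called higher and 3 lower. The indirect pathway list had a median of -0.166 there, with 0 and 4 (4.58% and 4.86% of all genes tested). The difference between the pathways was not tested.

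The 2 lists of genes that are low or high in several HD mouse models had unlike medians, a difference that was not tested. The list of 195 striatal genes that are low in several HD mouse models, compiled by the study's authors in earlier work, was 161 genes long after the filter on low values. Its median log2 fold change was 0.118, with 53 members higher and 1 lower at an unadjusted p under 0.05, and 1 passed adjustment. The median was 0.190 in males and 0.044 in females. With the length offset these values were 0.105 and 54 higher, and with the 4 libraries set aside 0.111 and 33 higher, where 248 of the 13397 genes were. The 71 genes that are high in the same models (64 after the filter) had a median of -0.015, with 2 members higher and 4 lower (1 and 3 with the 4 libraries set aside). Their median was -0.028 in males and 0.010 in females. In LacQ140 against WT + IPTG the lists had medians of -0.764 and 0.688. Against the same LacQ140 mice, the low list had a median of 0.256 in LacQ140_A and 0.219 in LacQ140_2M. Of its 195 genes, 65 and 57 were called higher, against 0.562% and 0.466% of all genes. The high list had a median of -0.234 and -0.144 (21 and 7 of 71 called lower, against 0.348% and 0.141% of all genes).

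A broader signature was taken from the 6-month striata, which were other mice. It held the genes called at the thresholds above in LacQ140 against WT + IPTG at that age, less those called for IPTG in the WT mice of that age, 1387 of them higher and 1335 lower in LacQ140. At 12 months, the 957 higher genes that passed the filter had a median log2 fold change of 0.006 in LacQ140_8M against LacQ140, with 33 higher and 26 lower at an unadjusted p under 0.05, and the 951 lower genes had a median of 0.020 (0.003 to 0.034 without 1 mouse), with 65 higher and 22 lower. Over all genes, 3.38% were higher and 3.64% lower at that p. The 2 medians were -0.013 and 0.035 in males and 0.037 and -0.002 in females. With the 4 libraries set aside these counts were 15, 21, 42 and 25 in the same order. With the length offset they were 29, 18, 72 and 11, where 2.9% of all genes were higher and 2.37% lower. The 2 medians with the offset were 0.001 and 0.022. For 57.1% of the higher and 52.6% of the lower genes the 95% interval lay within 1.2-fold. The same lists had medians of 0.262 and -0.280 in LacQ140 against WT + IPTG at 12 months.

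**Figure D4:**
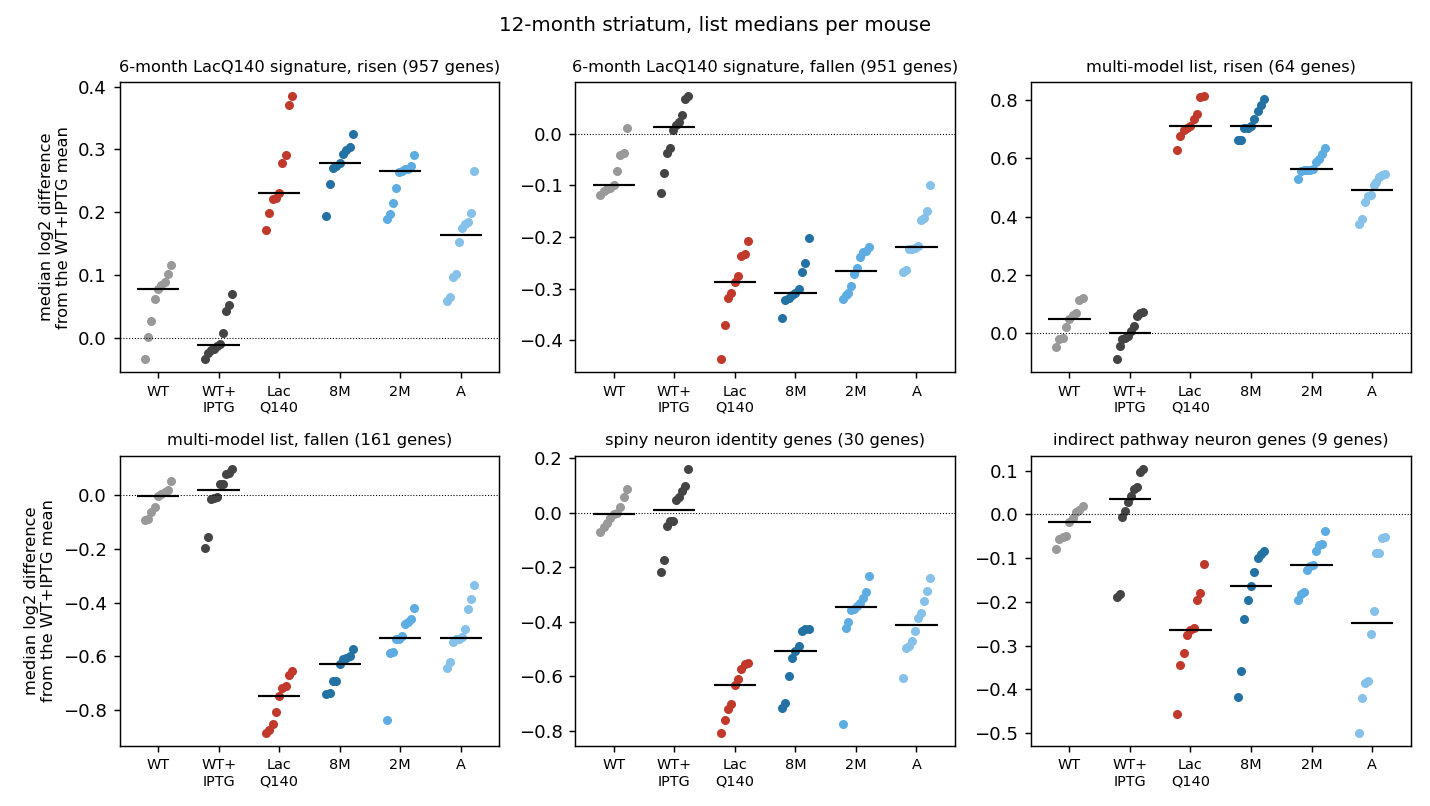
Median over each list of a mouse's log2 CPM minus the WT + IPTG mean, 1 point per mouse in order of value and a line at the group median, for 6 lists and the 6 groups of 12-month striata. LacQ140 and LacQ140_8M overlap in each list, with group medians of -0.749 and -0.631 for the multi-model list that fell and of 0.712 and 0.711 for the one that rose.

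*Wt1*, a developmental transcription factor, lay at 3.49, 4.74 and 5.48 CPM in LacQ140_8M and at 3.58, 4.90 and 5.99 CPM in LacQ140 mice, while WT + IPTG mice reached at most 0.184 CPM. The log2 fold change was -0.05 (SE 0.120, 95% interval -0.28 to 0.19), against -1.72 in LacQ140_A and -0.98 in LacQ140_2M, both with the same LacQ140 mice. *Sfmbt2*, a Polycomb-related gene, had a log2 fold change of 0.02 (SE 0.098). A list of 18 developmental genes was drawn up as candidates for such a rise, of which 13 were called higher in LacQ140 than in WT + IPTG mice. Of the 18, 11 passed the filter, and their median log2 fold change was -0.032, with none at an unadjusted p under 0.05. The same 11 genes had medians of -0.354 in LacQ140_A and -0.205 in LacQ140_2M. *Crnde*, a noncoding RNA gene, lay at 1.58, 1.81 and 2.44 CPM against 1.90, 2.20 and 2.95 CPM (log2 fold change -0.27, SE 0.137, unadjusted p = 0.054), with 6 LacQ140_8M mice below the LacQ140 range.

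*Lmx1b*, which encodes a LIM homeobox transcription factor, is named outside the rule for named genes, after its values were seen. It (chr2:33560965-33640511) lay at 0.145, 0.405 and 1.05 CPM in LacQ140_8M and at 0.645, 0.906 and 1.58 CPM in LacQ140 mice, with 7 LacQ140_8M mice below every LacQ140 mouse. The WT + IPTG median was 0.110 CPM. The log2 fold change was -1.12 (SE 0.227, 95% interval -1.57 to -0.67), with an edgeR adjusted p of 0.061, of 0.038 with the length offset, of 0.0028 with the 4 libraries set aside and of 0.16 with the slope covariate. DESeq2 gave 0.64. *Lmx1b* was called in 2 of the 18 fits that left out 1 mouse each, with adjusted p from 0.0054 to 0.21. The highest LacQ140_8M value was that of M4, 1 of those 4 libraries. Against the same LacQ140 mice it was -3.16 in LacQ140_A and -2.75 in LacQ140_2M.

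*Gpx6*, a glutathione peroxidase gene, lay at 0.756, 1.16 and 1.63 CPM in LacQ140_8M, at 0.459, 0.814 and 1.12 CPM in LacQ140 and at 7.13 to 17.2 CPM in WT + IPTG mice (log2 fold change 0.58, SE 0.260, unadjusted p = 0.028), and did not pass adjustment. *Tmprss6*, a membrane serine protease gene, had a log2 fold change of 0.70 (SE 0.274, unadjusted p = 0.012) and *Ddit4l*, a regulator of mTOR signalling, of 0.15 (SE 0.097). *Abhd1* and *Npcd*, which were higher in LacQ140 than in WT + IPTG mice, had log2 fold changes of -0.03 (SE 0.129) and 0.13 (SE 0.277). These 5 genes, with *Wt1* and *Sfmbt2*, were picked with earlier results of these data known, and other genes differed more between LacQ140 and WT + IPTG mice.

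Among these 13397 genes, the smallest p-values after *Scn4b* were those of *Ror1*, *Gm19410*, *Gm39043* and *Htr2a* for higher and *Dok5*, *Gmds*, *Atat1*, *2210016F16Rik* and *Gm29562* for lower genes, and none passed adjustment (edgeR adjusted p from 0.23 to 0.62). *Gm19410* lay at 19.3, 20.7 and 21.9 CPM in LacQ140_8M and at 13.3, 16.5 and 18.1 CPM in LacQ140 mice, a log2 fold change of 0.34 (SE 0.076). It was the only gene of 13397 with all 9 LacQ140_8M mice above all 9 LacQ140 mice (0.00746%), and none had the reverse (0.0%). *Ror1*, a receptor tyrosine kinase of Wnt5a signalling, lay at 2.46, 3.08 and 3.99 CPM against 1.29, 2.02 and 2.95 CPM (log2 fold change 0.62), and *Htr2a*, a serotonin receptor, at 17.2, 23.0 and 32.3 CPM against 13.1, 15.9 and 26.4 CPM (0.56). Both lay below WT + IPTG in LacQ140 mice, by 1.37 and 0.60 on the log2 scale. Of the lower genes, *Dok5*, an adaptor of receptor tyrosine kinases, lay at 11.6, 12.2 and 14.1 CPM against 12.7, 15.2 and 17.3 CPM (log2 fold change -0.27), and *Gmds*, an enzyme of GDP-fucose synthesis, at 6.83, 7.74 and 9.13 CPM against 8.49, 9.61 and 10.1 CPM (-0.27). *Atat1*, the tubulin acetyltransferase, had a log2 fold change of -0.18. In LacQ140 against WT + IPTG mice, the log2 fold change of *Dok5* was 0.00, that of *Gmds* 0.31 and that of *Atat1* 0.36.

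Other functional lists differed in whether they kept their median under the length offset. Circadian clock genes kept it, at 0.118 before and 0.105 after, with 7 of 18 members higher and 0 lower at an unadjusted p under 0.05 (6 with the 4 libraries set aside). For these and the lists that follow, the shares over all genes are the 3.38% higher and 3.64% lower given above, 2.9% and 2.37% with the offset. The 7 were *Hlf* and *Tef*, PAR bZIP output factors, *Per1*, *Per3*, *Cry2* and *Ciart*, repressors of the clock, and *Npas2*, a partner of its activator. *Per1* lay at 89.9, 120 and 157 CPM against 66.3, 109 and 120 CPM. The 14 glucocorticoid responsive genes had a median of 0.241 (0.250 with the offset), with *Per1*, *Sgk1*, *Pdk4* and *Nfkbia* higher at an unadjusted p under 0.05 and 1 of 14 with the 4 libraries set aside. The glucocorticoid responsive median was 0.061 in males and 0.395 in females, also not tested. In LacQ140 against WT + IPTG mice the circadian and glucocorticoid lists had medians of -0.341 and -0.405. There 13 of 18 and 4 of 14 members were called lower, against 4.86% of all genes tested. Against the same LacQ140 mice the medians were 0.164 and 0.433 in LacQ140_A and 0.204 and 0.279 in LacQ140_2M. In WT mice without IPTG against with IPTG they were -0.058 and 0.131. The 18 immediate early genes, transcribed within minutes of neuronal activity, had a median of 0.225 (0.135 without LacQ140 F4) and 17 members above 0, but none at an unadjusted p under 0.05, and in WT mice the median without IPTG against with IPTG was -0.442. Time of day, handling and cage were not tested.

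Lists of short transcripts came nearer to 0 with the offset. All 63 cytosolic ribosomal protein genes lay below 0, with a median log2 fold change of -0.109 that became -0.030 with the offset, and members at an unadjusted p under 0.05 went from 3 to 0 (also 0 with the 4 libraries set aside). Oxidative phosphorylation subunits went from -0.092 to -0.011 (5 of 38 members lower, then 0), and proteasome subunits from -0.081 to -0.023 (8 of 31 members lower, then 1). With the 4 libraries set aside in place of the offset their medians were -0.079 and -0.074, with 0 and 2 members lower. Glutamate receptor genes, which have long transcripts, went from 0.093 to 0.046 (8 of 22 members higher, then 4, and a median of 0.092 with 4 higher with the 4 libraries set aside), with *Gria2*, an AMPA receptor subunit, at 276, 355 and 405 CPM against 240, 305 and 355 CPM.

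**Figure D5:**
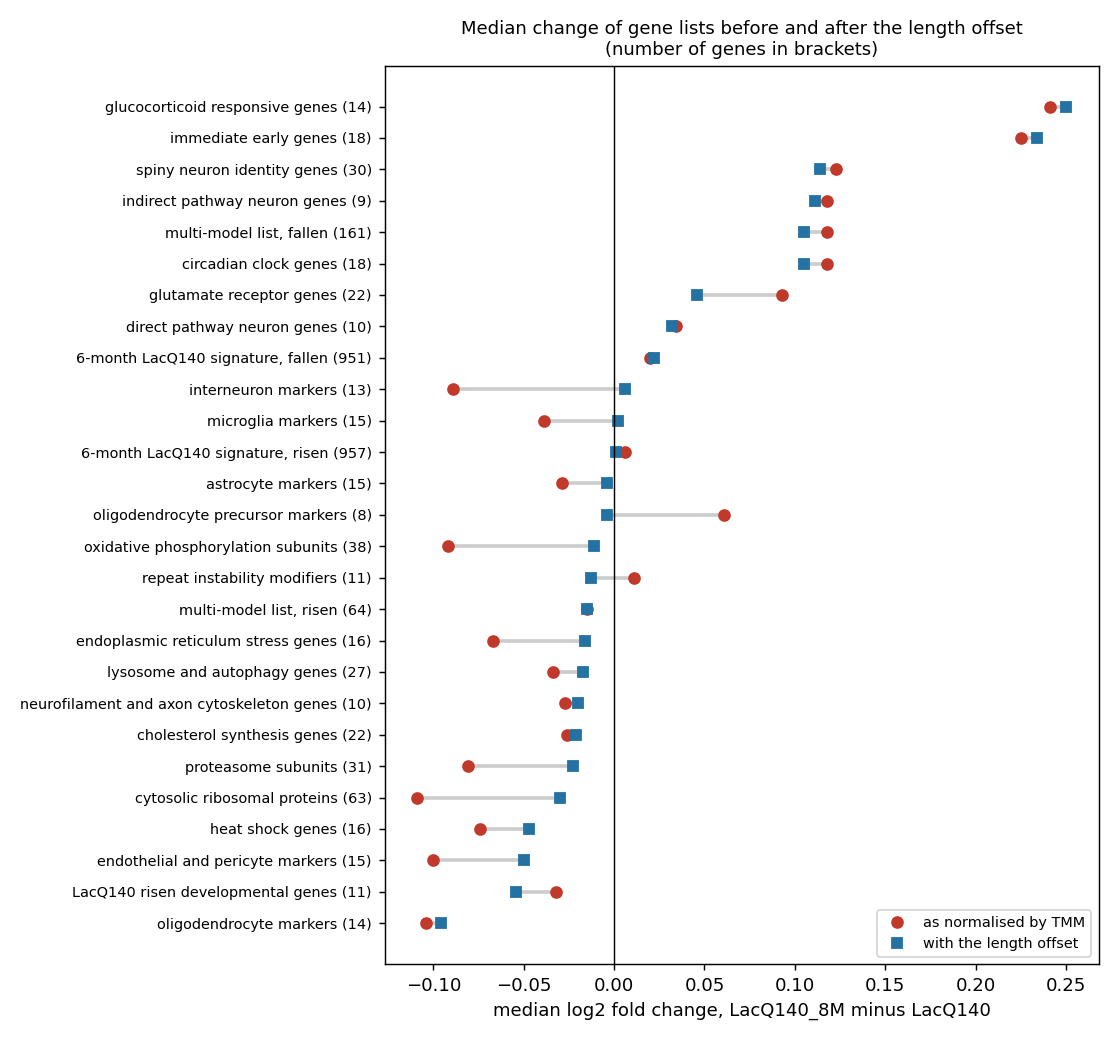
Median log2 fold change (LacQ140_8M minus LacQ140) of 27 gene lists as normalised by TMM (red circles) and with the length offset (blue squares), with the number of genes in brackets. Spiny neuron identity genes stayed near 0.12 and 0.11, while cytosolic ribosomal protein genes moved from -0.109 to -0.030.

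Of the markers of glia and vessels, those of oligodendrocytes and those of endothelial cells and pericytes had the lowest medians. In males these 2 medians were -0.034 and -0.055, with astrocyte markers at -0.037, and in females they were -0.170 and -0.085. Oligodendrocyte markers lay at -0.104 (-0.096 with the offset), with all 14 at or below 0. *Opalin*, *Cnp*, *Mog* and *Gjb1*, all genes of myelin or myelinating cells, were lower at an unadjusted p under 0.05 (2 with the offset, 4 with the 4 libraries set aside). *Opalin* lay at 27.3, 38.9 and 47.9 CPM against 34.1, 48.3 and 67.7 CPM (log2 fold change -0.37, SE 0.125). Astrocyte markers had a median of -0.029, with *S100b*, *Vim*, *Aldh1l1* and *Gfap* lower by that p, 2 of 15 lower with the offset, and 5 lower and 1 higher with the 4 libraries set aside. Microglia markers (-0.039, and 0.002 with the offset) and interneuron markers (-0.089, and 0.006 with the offset) had no member at that p, and endothelial and pericyte markers (-0.100, and -0.050 with the offset) had 1 higher and 2 lower (1 and 0 with the 4 libraries set aside). Heat shock genes had a median of -0.074, endoplasmic reticulum stress genes of -0.067, lysosome and autophagy genes of -0.034 and cholesterol synthesis genes of -0.026. Members lower at that p were 2 of 16, 1 of 16, 1 of 27 and 1 of 22 in this order. With the offset the medians were -0.047, -0.016, -0.017 and -0.021, with 2, 0, 1 and 0 members lower. With the 4 libraries set aside the members lower were 0, 0, 2 and 1 in the same order. These small medians moved with single mice. Leaving out 1 mouse gave -0.145 to -0.063 for oligodendrocyte, -0.042 to -0.007 for astrocyte, -0.063 to -0.019 for microglia, -0.099 to 0.007 for interneuron and -0.118 to -0.046 for endothelial and pericyte markers, with the oligodendrocyte and interneuron values nearest 0 or above it both found without LacQ140 M1. It gave -0.107 to -0.034 for heat shock and -0.100 to -0.027 for endoplasmic reticulum stress genes, both nearest 0 without LacQ140 F3. The modifiers of CAG repeat instability, DNA mismatch repair genes among them, had a median of 0.011 and no member at that p. In WT mice without IPTG against with IPTG, the medians were -0.172 for heat shock and -0.210 for endoplasmic reticulum stress genes. They were -0.018 for lysosome and autophagy and -0.031 for cholesterol synthesis genes. The part of IPTG in these lists was not tested.

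Because the LacQ140_8M mice were off IPTG at sampling, the difference was also computed less the IPTG difference between the WT groups. The subtraction takes the IPTG difference to be alike in WT and LacQ140 mice, which was not tested. The IPTG-adjusted comparison called 2 genes (0.00565%), *Inppl1* and *Gabra6*. *Inppl1*, a phosphoinositide phosphatase gene, lay at 28.9, 33.8 and 38.1 CPM in LacQ140_8M and at 26.2, 29.8 and 33.7 CPM in LacQ140 mice. Its IPTG-adjusted log2 fold change was 0.42 (edgeR adjusted p = 0.0065). Before the subtraction it was 0.20 (edgeR adjusted p = 0.43), and in WT mice *Inppl1* was higher on IPTG by 0.22 (log2). *Gabra6*, a GABA receptor subunit of cerebellar granule neurons, lay at 2.90 CPM in LacQ140_8M F2 and at most 0.276 CPM in the rest of that group. With the 4 libraries set aside neither was called. In WT mice, 48 genes (0.136%) were called higher and 29 (0.082%) lower on IPTG. Of these, 42 and 18 passed the filter, and their medians in LacQ140_8M against LacQ140 were 0.025 and 0.011. Without 1 mouse these medians lay at -0.002 to 0.071 and -0.022 to 0.028, and with the 4 libraries set aside at 0.008 and -0.014. In LacQ140 against WT + IPTG mice the medians were -0.413 and 0.317, but the lists were chosen on the same WT + IPTG mice.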

How the data were processed

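Striatum RNA was sequenced by the submitters as paired-end libraries on an Illumina NovaSeq, and the deposited tables hold expected counts per gene (not whole for 31.58% of nonzero values in the 12-month table), made by the authors on GRCm38 per the submitters' processing notes. The aligner and counter are not given in the sources used here. Expected counts were rounded, and genes with at least 1 count in the 57 striatum libraries of 12 months (35386) were fitted by group with the quasi-likelihood test of edgeR 4.0.16 (R 4.3.3) after TMM normalisation. P-values were adjusted by Benjamini-Hochberg over all genes, with thresholds of 0.05 and a 20% change, and cover the spread between mice. SEs and 95% intervals are from this fit. CPM are TMM-scaled. List counts, medians and ranks use genes whose mean log2 CPM was 1 or more. Transcript lengths are those of the longest GENCODE vM21 transcript, and the length offset used lowess with a span of 0.3. DESeq2 1.42.0, other filters and normalisations, sex, replicate numbers, the library slope, 2 groups alone and each mouse left out were alternatives.

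The genes named were *Htt*, 6 genes the study names in its text, 7 genes picked for their LacQ140 change from earlier results of these data, the 5 higher and 5 lower genes with the smallest p-values, and the leading member of lists, with others of each list given by p-value. *Hcrt*, *Pmch*, *Gabra6*, *Fat2*, *Inppl1* and *Lmx1b* were added after their values were seen, and so was *Penk*, which the study plots beside those 6. Members and lists were chosen with earlier results of these data known. Scripts were tested on simulated data. Sequence was read from RefSeq promoters. Within groups, no 2 libraries agreed within sampling noise (smallest chi-square per degree of freedom 8.57 over 72 pairs).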

Additional observations from a re-analysis of the deposited data

Results flagged for a closer look

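Of 114 groups of values tested for a mouse far from the others, 9 had such a mouse. Chance alone gives about 1 in 20, a rate that cannot be set against *Hcrt*, *Pmch*, *Gabra6* and *Fat2*, which were added after their values were seen. Most were marker genes of neighbouring tissue. *Slc17a7*, a glutamate transporter gene of cortical neurons, lay at 286 CPM in LacQ140 M2 and at most 17.2 CPM in the other LacQ140 mice. *Hcrt* and *Pmch*, neuropeptide genes of the lateral hypothalamus, lay at 19.3 and 85.1 CPM in LacQ140 M1, against at most 0.136 and 1.89 CPM. *Gabra6* and *Fat2*, genes of cerebellar granule neurons, lay at 2.90 and 2.79 CPM in LacQ140_8M F2, against at most 0.276 and 0.452 CPM, and *Synpo2*, a thalamic marker, at 34.9 CPM in the same library, against at most 21.5 CPM. *Ttr*, the choroid plexus gene for transthyretin, lay at 291 CPM in LacQ140_8M M4, against at most 118 CPM.

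*Gm29562* lay at 27.8 CPM in LacQ140_8M M3, against at most 20.5 CPM in the rest of the group. The slope of log2 CPM on transcript length was 0.267 in LacQ140_8M F5, against at least 0.355 in the others.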

How the results depend on the processing

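The comparison called 1 gene with DESeq2, with the expression filter of edgeR or with the 2 groups alone (*Scn4b*), 1 with the library slope as a covariate (*Abhd11os*) and 1 with the 4 libraries set aside, with or without the length offset (*Lmx1b*). It called 4 with the length offset (*Scn4b*, *Hcrt*, *Lmx1b*, *Abhd11os*), 0 by exact rank-sum tests (1468 genes at an unadjusted p under 0.05) and 0 to 3 without 1 mouse, 0 being without LacQ140 M1 or LacQ140_8M F4, M1, M2 or M5. The cause was not tested.

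With the replicate number as a block 4 genes were called (*Scn4b*, *Hcrt*, *Lmx1b*, *Igfn1*), and 3 after the IPTG adjustment. The numbers do not pair the mice, with correlations of same-numbered deviations between -0.408 and 0.03 over 8 pairs.

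The IPTG-adjusted comparison called 17 genes with DESeq2, 1 with the expression filter, 1 with the slope covariate, 0 with the 4 libraries set aside (2877 genes at an unadjusted p under 0.05 in edgeR, 2529 with the offset), and 1 to 5 without 1 mouse. The slope difference lay between 0.044 and 0.07 without 1 mouse.

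The *Htt* log2 fold change was 0.002 with DESeq2 or its size factors, 0.003 with the expression filter, 0.000 with the 2 groups alone and -0.02 to 0.033 without 1 mouse. Other named genes also changed sign. The slope covariate gave 0.01 for *Wt1*, -0.06 for *Sfmbt2*, 0.06 for *Abhd1*, -0.14 for *Npcd* and 0.08 for *Rbm3*, and the offset gave -0.05 for *Sfmbt2*, 0.04 for *Abhd1* and 0.00 for *Rbm3*. *Slc17a7* was at 0.68 with the block. DESeq2 gave 0.04 for *Hcrt* and 0.61 for *Pmch*. The 4 libraries set aside gave 1.64 for *Slc17a7*, 0.05 for *Hba-a2*, 0.10 for *Hcrt* and 0.28 for *Pmch*, and with the offset -0.02 for *Sfmbt2*, 0.02 for *Rbm3*, 0.01 for *Cox8a*, 1.65 for *Slc17a7*, 0.12 for *Hba-a2*, 0.20 for *Hcrt* and 0.39 for *Pmch*. Without 1 mouse the ranges were -0.09 to -0.00 for *Wt1*, -0.02 to 0.07 for *Sfmbt2*, -0.07 to 0.03 for *Abhd1* and for *Rbm3*, -0.96 to 1.78 for *Slc17a7* and -3.59 to 0.67 for *Pmch*. Of 1510 values of named genes under alternatives, 36 changed sign.

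Depth and 9 mice per group limit genes of low count, where counting error is widest. Setting the 4 libraries aside was chosen after seeing the data, and the length offset also takes out biological differences that follow length.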

Other observations

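Some lists held too few expressed genes or rested on the libraries described above, and are given as values. In LacQ140_8M against LacQ140, thalamic markers had a median log2 fold change of 0.174, and of -0.055 with the 4 libraries set aside. Ependymal and choroid plexus markers had medians of 0.099 and 0.029 in the same order, cortical projection neuron markers of -0.047 and 0.091, and blood cell markers of -0.043 and 0.222. Oligodendrocyte precursor markers had a median of 0.061 (-0.004 with the length offset and 0.022 with the 4 libraries set aside). *Pdgfra*, a growth factor receptor gene of these cells, lay at 54.5, 60.9 and 72.7 CPM (lowest, median and highest) in LacQ140_8M and at 45.0, 59.1 and 68.2 CPM in LacQ140 mice. Neurofilament and axon cytoskeleton genes had a median of -0.027 (-0.047 to -0.009 without 1 mouse). Of 10 members, 2 were lower at an unadjusted p under 0.05, where 3.64% of all genes were. With the length offset 1 was lower, and with the 4 libraries set aside 0. The cold inducible genes had a median of -0.013, with *Rbm3* at 100, 141 and 158 CPM against 92.3, 139 and 162 CPM. None of the 7 pituitary hormone genes reached a mean of 1 log2 CPM.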
